A study of Mus musculus with 48 samples.

Results

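The genes described here were 7 aldehyde dehydrogenases (Aldh1a1, Aldh1a7, Aldh1b1, Aldh2, Aldh3a2, Aldh8a1 and Aldh9a1) and the aldo-keto reductase Akr1b7, 8 of the 40847 genes in the count tables. They were taken by their symbols from a table of raw read counts for female livers and from another for male livers, and all 8 passed the filter on low counts in both sexes. In males Akr1b7 passed only through the 10-PFOS groups, since its untreated and 1-PFOS levels lay mostly under the limit of 1 CPM (CPM are counts scaled to the same library total in every sample). The samples were livers of 48 mice, 4 in each of 12 groups. hCYP2B6-Tg mice and Cyp2b-null mice of both sexes, aged 10 to 12 weeks at the start, were gavaged for 21 days with PFOS (perfluorooctanesulfonic acid, a persistent fluorinated surfactant) at 0, 1 or 10 mg/kg/day, here called 0-PFOS, 1-PFOS and 10-PFOS, in water with Tween 20. Every mouse, untreated ones included, carried the CRISPR deletion of the hepatic Cyp2b genes Cyp2b9, Cyp2b10 and Cyp2b13 on C57BL/6J, and the hCYP2B6-Tg mice carried in addition the human CYP2B6, CYP2A13 and CYP2F1 genes. No mouse was a wild type, so every comparison was made on the deletion background. Each library came from 1 mouse.

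Aldehyde dehydrogenases oxidise aldehydes, which are reactive products of alcohol, lipid, amino acid and vitamin A metabolism, to carboxylic acids with NAD or NADP as the acceptor, and aldo-keto reductases remove aldehydes the opposite way, by reducing them to alcohols with NADPH. Liver holds most members of both families, in the cytosol (Aldh1a1, Aldh9a1, Akr1b7), the mitochondrion (Aldh2, Aldh1b1) and the endoplasmic reticulum and peroxisome (Aldh3a2). PFOS is known as an activator of the nuclear receptors PPARα, CAR and PXR in rodent liver.

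Library totals ran between 44416597 and 82615862 counts, and no 2 libraries of the same group agreed within sampling noise. Of the hepatocyte markers Alb, Apoa1, Ttr, Serpina1c, Cps1 and Hnf4a, 6 of 6 were above 0 in every mouse, with group medians of their summed level between 36977 and 44059 CPM at 10-PFOS and between 79233 and 94957 CPM at 0-PFOS. Summed Kupffer cell markers (6 of 6 detected) had group medians of 57.8 to 112 CPM at 10-PFOS against 105 to 220 CPM at 0-PFOS, and summed lymphocyte markers 3.80 to 7.23 CPM against 5.65 to 12.2 CPM, with 3 to 5 of 5 detected in every mouse of a 10-PFOS group and 5 of 5 at 0-PFOS. Endothelial medians were 115 to 138 CPM at 10-PFOS and 94.1 to 149 CPM at 0-PFOS (5 of 5 markers), stellate medians 125 to 148 CPM and 109 to 200 CPM (5 of 5), and cholangiocyte medians 16.9 to 23.2 CPM and 16.6 to 26.2 CPM (5 of 5). In bulk liver, fewer cells of a type and less RNA per cell cannot be told apart, and the part of these shifts in the results was not tested. The deleted genes were still counted and were higher with dose: Cyp2b10 had 0.324 to 1.56 CPM at 0-PFOS, 1.44 to 6.07 CPM at 1-PFOS and 10.8 to 20.3 CPM at 10-PFOS, Cyp2b9 reached 34.9 CPM and Cyp2b13 7.40 CPM at 10-PFOS, and human CYP2B6 was not analysed here, so the genotype labels were not checked by expression. At 1-PFOS, 8 of 16 libraries stood apart: transcripts of high GC content were low in them relative to transcripts of low GC content, with a GC index (the difference of the mean log2 levels of the 20% of genes highest and lowest in GC, from the mean over libraries) below -0.1. They were 2 libraries in each 1-PFOS group (replicates 2 and 3 in females, 3 and 4 in males), and no 0-PFOS or 10-PFOS library was below that limit. The 8 had GC indices of -0.64 to -0.15, and replicate 3 of the untreated hCYP2B6-Tg females came near the limit, at -0.096. Numbers of genes called at 1-PFOS against 0-PFOS are therefore given with and without these 8 libraries. Leaving them out kept only 2 mice in each 1-PFOS group. Over all genes, 216 of 300 calls were then lost in hCYP2B6-Tg females and 924 of 1851 in hCYP2B6-Tg males. Whether a lost call came from the smaller groups or from the GC shift was not tested.

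Promoter sequences of 250 bases before and 50 bases after the start of transcription, as RefSeq places it on GRCm38.p6 (an older assembly than the GRCm39 of the counts), were at hand for 7 of the 8 genes, and Aldh2 had none. Of these the promoters of the neighbours Aldh1a1 (chr19:20601718-20602017, plus strand, the downstream of its 2 starts) and Aldh1a7 (chr19:20727507-20727806, minus strand) are shown because the levels of the pair moved closely together over these livers. Of the 2 Aldh1a1 starts, the one whose window had the longer run in common with Aldh1a7 was chosen. The likeness given here is therefore partly a result of that choice. Capitals mark the longest run that they share, 65 bases at positions 157 to 221 of both.
Aldh1a1: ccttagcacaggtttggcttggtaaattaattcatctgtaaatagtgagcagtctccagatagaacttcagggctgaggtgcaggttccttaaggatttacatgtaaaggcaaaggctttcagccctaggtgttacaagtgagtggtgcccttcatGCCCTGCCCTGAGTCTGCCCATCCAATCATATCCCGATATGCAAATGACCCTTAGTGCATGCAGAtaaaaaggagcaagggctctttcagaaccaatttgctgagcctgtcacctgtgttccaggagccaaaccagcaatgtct
Aldh1a7: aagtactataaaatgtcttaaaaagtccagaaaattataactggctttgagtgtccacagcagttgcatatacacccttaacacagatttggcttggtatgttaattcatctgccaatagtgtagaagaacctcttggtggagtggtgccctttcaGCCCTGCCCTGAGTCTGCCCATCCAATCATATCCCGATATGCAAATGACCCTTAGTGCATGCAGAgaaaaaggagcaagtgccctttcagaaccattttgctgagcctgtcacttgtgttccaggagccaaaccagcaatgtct
From position 151 to 300 the pair had the same base at 142 of 150 positions (94.7%), and from 1 to 150 at 35 of 150 (23.3%). The Akr1b7 promoter (chr6:34412112-34412411, plus strand) is shown because this gene had the largest fold changes of the 8.
Akr1b7: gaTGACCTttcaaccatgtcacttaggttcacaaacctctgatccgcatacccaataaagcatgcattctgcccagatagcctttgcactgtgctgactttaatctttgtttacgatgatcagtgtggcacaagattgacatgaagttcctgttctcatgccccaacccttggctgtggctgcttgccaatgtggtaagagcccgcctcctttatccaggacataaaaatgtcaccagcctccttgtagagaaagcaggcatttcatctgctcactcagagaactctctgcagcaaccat
Its capitals mark a nuclear receptor hexamer, AGGTCA, which reads on the reverse strand at positions 3 to 8, that is from position -248 relative to the first transcribed base. This hexamer was found, on either strand, in 16.3% of 32851 promoters of the same length and in none of the other 7 promoter windows of the 8 genes. Its tandem repeats with 1 base between, AGGTCANAGGTCA (0.0396% of promoters), or with 4 bases between, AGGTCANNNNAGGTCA (0.0152%), which each contain the hexamer, were in no window of these genes. TGACNNNGC, the core of the antioxidant response element, was in 12.4% of promoters and once among these genes, on the plus strand of Aldh9a1 at positions 164 to 172. A match of letters is a description of the window and not a binding site.

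**Figure D1:**
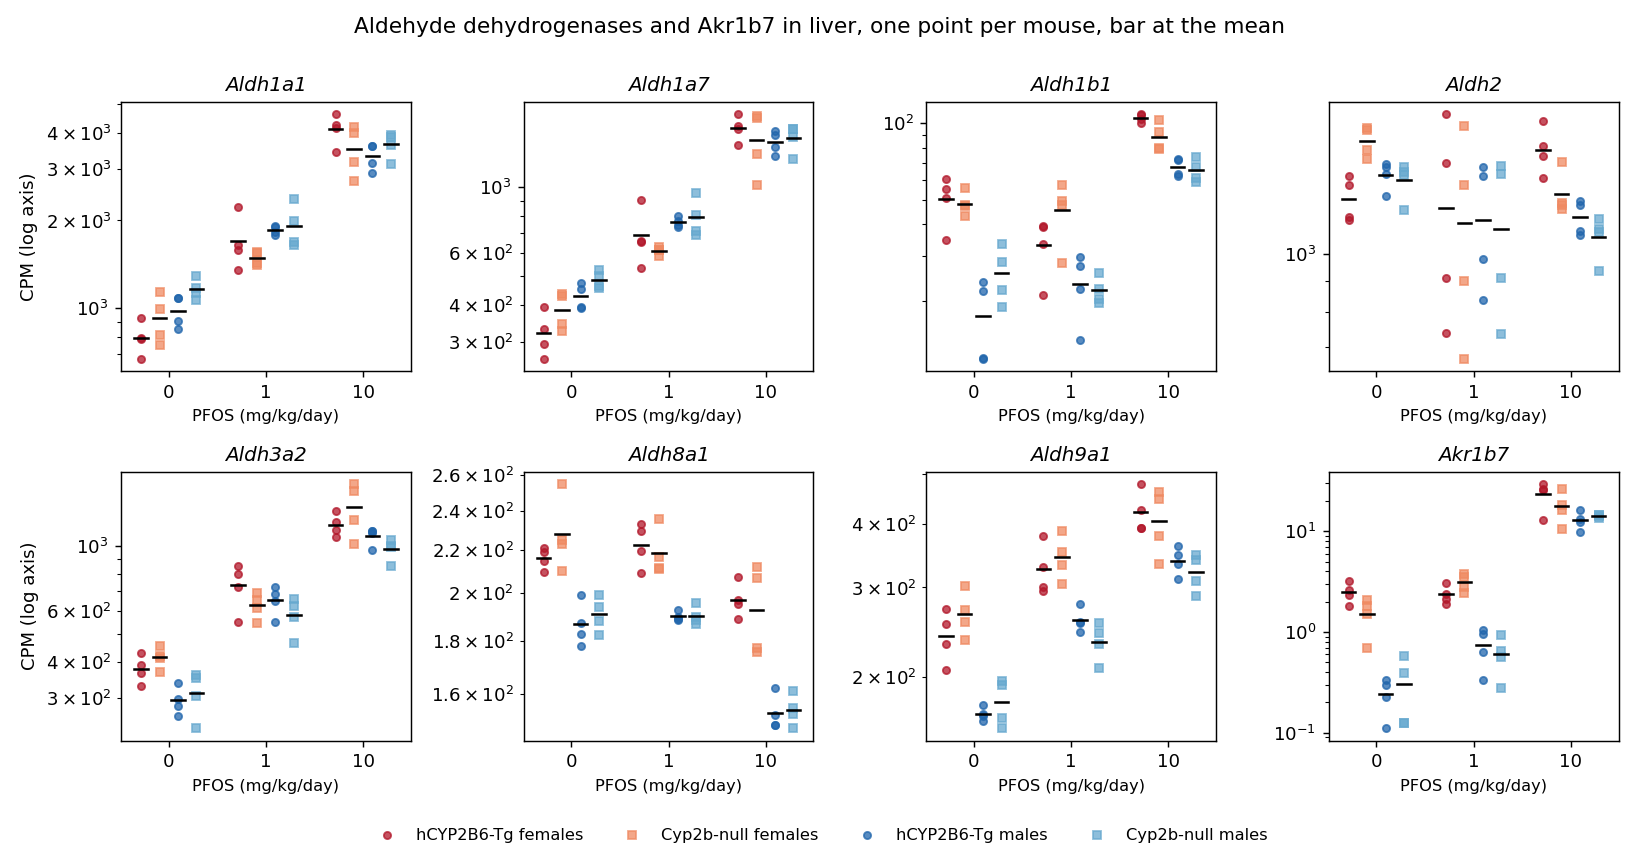
Levels of the 8 genes in every liver (CPM scaled within a sex, log axis) against the PFOS dose in mg/kg/day, 1 point for each mouse and a bar at the mean of 4. Points of Aldh1a1, Aldh1a7, Aldh3a2 and Akr1b7 at 10-PFOS lie above all 0-PFOS points of the same sex and genotype, Aldh8a1 stays in a narrow range, and Aldh2 splits into a high and a low pair at 1-PFOS.

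At 10-PFOS, 6 of the 8 genes rose in all 4 combinations of sex and genotype: Aldh1a1, Aldh1a7, Aldh1b1, Aldh3a2, Aldh9a1 and Akr1b7. Aldh8a1 fell in 3 of the 4, though in males not with library totals alone, and Aldh2 was called in none (edgeR quasi-likelihood test, Benjamini-Hochberg adjusted p below 0.05 over all genes tested). In hCYP2B6-Tg females 6 rose and 0 fell, where 22.3% of all genes tested rose and 24.5% fell. In Cyp2b-null females 6 rose and 1 fell, beside 19.1% and 17.8% of all genes. In hCYP2B6-Tg males 6 rose and 1 fell, beside 24.1% and 23.9%, and in Cyp2b-null males 6 and 1, beside 22.5% and 21.6%. The male rises include Akr1b7, which passed the filter in males only through the 10-PFOS groups. The filter therefore favoured its rise there, and its lack of overlap between the male mice given below. The median log2 fold change of the 8 was 1.36 in hCYP2B6-Tg females, 1.29 in Cyp2b-null females, 1.74 in hCYP2B6-Tg males and 1.47 in Cyp2b-null males, and that of all genes tested lay between -0.05 and -0.01. In each of the 4 comparisons the same 6 genes had all 4 treated mice above all 4 untreated ones, as had 20.7% of genes in hCYP2B6-Tg females, 19% in Cyp2b-null females, 23.1% in hCYP2B6-Tg males and 19.8% in Cyp2b-null males. All 4 treated mice lay below the untreated ones for 1 of the 8 in hCYP2B6-Tg females (20.9% of genes) and in Cyp2b-null females (18.6%), and for 2 in hCYP2B6-Tg males (22.1%) and in Cyp2b-null males (19%).

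Aldh1a1 makes retinoic acid from retinaldehyde and also clears lipid peroxidation aldehydes. In hCYP2B6-Tg females it had 4256, 3427, 4619 and 4141 CPM at 10-PFOS against 925, 673, 789 and 784 CPM at 0-PFOS, a log2 fold change of 2.37 (SE 0.17, adjusted p = 2.87e-10). In Cyp2b-null females it had 4170, 3172, 3975 and 2734 CPM at 10-PFOS against 998, 747, 1138 and 813 CPM at 0-PFOS (log2 fold change 1.93, SE 0.17, adjusted p = 7.63e-09). No treated female reached down to an untreated one, and the lowest treated female (2734 CPM) stood well above the highest untreated one (1138 CPM). In hCYP2B6-Tg males the values were 3601, 2919, 3140 and 3589 CPM at 10-PFOS and 1086, 847, 1082 and 908 CPM at 0-PFOS, and the log2 fold change was 1.76 (SE 0.12, adjusted p = 3.80e-11). In Cyp2b-null males they were 3623, 3938, 3873 and 3134 CPM at 10-PFOS and 1131, 1295, 1170 and 1068 CPM at 0-PFOS (1.64, SE 0.12, adjusted p = 1.31e-10). The male groups were as clearly apart as the female ones. Per kilobase of the longest annotated transcript, Aldh1a1 stood at 1490 CPM per kb and Aldh2 at 325 CPM per kb in Cyp2b-null females at 10-PFOS, against 392 and 398 CPM per kb at 0-PFOS. The untreated order depends on the length used, since per kilobase of all annotated exons Aldh1a1 had 187 CPM per kb and Aldh2 300.3 CPM per kb at 0-PFOS.

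Aldh1a7, the rodent paralog of Aldh1a1 next to it on the chromosome, followed it closely. Its means at 10-PFOS against 0-PFOS were 1588 ± 153 against 321 ± 56.0 CPM in hCYP2B6-Tg females, 1444 ± 349 against 383 ± 56.1 CPM in Cyp2b-null females, 1423 ± 125 against 428 ± 41.8 CPM in hCYP2B6-Tg males and 1468 ± 155 against 486 ± 33.3 CPM in Cyp2b-null males (SD, n = 4 each). The log2 fold changes were 2.31 (SE 0.18), 1.91 (SE 0.17), 1.73 (SE 0.11) and 1.59 (SE 0.11) in the same 4 comparisons, and adjusted p was 1.32e-08 or lower in each. The ratio of Aldh1a7 counts to Aldh1a1 counts varied little, and its mean in a group lay between 0.387 and 0.438. Across the 48 mice, after each group's mean was taken off, the correlation of their log2 levels was 0.96, a description of points that share libraries. The transcripts of the pair share no stretch of 150 bases, the length of a read, but they share runs of up to 100 bases, and 12.4% of the 30-base windows of Aldh1a1 occur in Aldh1a7. Reads trimmed short may have been split between them, so the separate levels are uncertain to that extent.

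Aldh3a2 oxidises long-chain fatty aldehydes such as those from fatty alcohols, phytol and sphingosine 1-phosphate. In hCYP2B6-Tg females it had 1136, 1073, 1207 and 1326 CPM at 10-PFOS against 329, 429, 366 and 391 CPM at 0-PFOS (log2 fold change 1.65, SE 0.15, adjusted p = 9.41e-09). In Cyp2b-null females it had 1636, 1234, 1545 and 1020 CPM at 10-PFOS against 414, 370.0, 455 and 420.1 CPM at 0-PFOS (1.71, SE 0.15, adjusted p = 8.11e-09). The Cyp2b-null females at 10-PFOS spread more widely (SD 284 CPM) than any other group of this gene, yet all 4 lay above every untreated female. In hCYP2B6-Tg males the values were 971, 1129, 1128 and 1107 CPM at 10-PFOS and 261, 298, 339 and 281 CPM at 0-PFOS (1.88, SE 0.13, adjusted p = 4.71e-11), and in Cyp2b-null males the means were 976 ± 84.6 CPM at 10-PFOS and 313 ± 56.5 CPM at 0-PFOS (SD, n = 4 each), with a log2 fold change of 1.64 (SE 0.13, adjusted p = 4.69e-10).

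Aldh9a1 oxidises 4-trimethylaminobutyraldehyde, a step of carnitine synthesis, and its changes were smaller. Mean levels at 10-PFOS against 0-PFOS were 422 ± 40.4 against 241 ± 28.3 CPM in hCYP2B6-Tg females, 405 ± 60.0 against 266 ± 27.6 CPM in Cyp2b-null females, 339 ± 20.8 against 170 ± 5.33 CPM in hCYP2B6-Tg males and 321 ± 27.4 against 179 ± 19.0 CPM in Cyp2b-null males (SD, n = 4 each). The log2 fold changes were 0.81 (SE 0.12), 0.61 (SE 0.12), 1.00 (SE 0.09) and 0.85 (SE 0.09), with adjusted p of 0.000439 or lower in each.

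Aldh1b1, a mitochondrial enzyme that oxidises acetaldehyde and retinaldehyde, was the least abundant of the 7 aldehyde dehydrogenases per length (21.0 CPM per kb in untreated Cyp2b-null females). It had 109, 104, 100.1 and 108 CPM in hCYP2B6-Tg females at 10-PFOS against 50.6, 34.8, 60.1 and 54.9 CPM at 0-PFOS, and a mean of 88.7 ± 11.5 CPM in Cyp2b-null females at 10-PFOS against 48.2 ± 5.19 CPM at 0-PFOS (SD, n = 4 each). In males it had 72.4, 71.9, 61.8 and 63.1 CPM in hCYP2B6-Tg males at 10-PFOS against 23.7, 21.9, 11.9 and 11.8 CPM at 0-PFOS, and 65.3 ± 6.74 against 25.6 ± 6.50 CPM in Cyp2b-null males (SD, n = 4 each). The untreated hCYP2B6-Tg males fell into 2 pairs of values, and all 4 were below every treated mouse of that genotype and sex. Log2 fold changes at 10-PFOS were 1.07 (SE 0.19), 0.88 (SE 0.19), 1.96 (SE 0.23) and 1.35 (SE 0.22) in the order of groups just given, with adjusted p of 0.0010 or lower in each. At 1-PFOS the gene was called in no group, and its mean was 33.3 CPM in hCYP2B6-Tg females, 45.6 CPM in Cyp2b-null females, 23.3 CPM in hCYP2B6-Tg males and 22.0 CPM in Cyp2b-null males. Its 10-PFOS levels were higher than those at 1-PFOS in all 4 comparisons, with log2 fold changes of 0.96 to 1.66.

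Akr1b7 reduces aldehydes such as isocaproaldehyde and 4-hydroxynonenal and is best known from the mouse adrenal gland and vas deferens. It was the least abundant of the 8 per length (1.19 CPM per kb in untreated Cyp2b-null females) and had the largest fold changes. In hCYP2B6-Tg females it had 26.0, 13.0, 29.4 and 25.6 CPM at 10-PFOS against 2.32, 3.24, 1.81 and 2.62 CPM at 0-PFOS (9.38-fold, log2 fold change 3.23, SE 0.31, adjusted p = 1.92e-08). In Cyp2b-null females it had 10.5, 18.3, 16.4 and 26.4 CPM at 10-PFOS against 2.09, 0.701, 1.51 and 1.79 CPM at 0-PFOS (11.6-fold, log2 3.54, SE 0.31, adjusted p = 1.03e-08). The treated females spread widely, between 10.5 and 29.4 CPM, and none came near the untreated ones. In hCYP2B6-Tg males it had 16.3, 9.71, 12.4 and 13.3 CPM at 10-PFOS against 0.297, 0.111, 0.224 and 0.336 CPM at 0-PFOS (54.0-fold, log2 5.75, SE 0.41, adjusted p = 5.51e-11). In Cyp2b-null males it had 14.5, 14.1, 14.5 and 13.6 CPM at 10-PFOS against 0.126, 0.126, 0.575 and 0.395 CPM at 0-PFOS (45.7-fold, log2 5.51, SE 0.40, adjusted p = 8.48e-11). Untreated males were near the floor of detection, with as few as 8 counts in a library, so the male fold changes rest on few reads in the untreated groups, while on a scale shared by both sexes treated females had 9.33 to 26.2 CPM and treated males 11.1 to 18.5 CPM. An RNA on the opposite strand, Gm13857, overlaps the span of Akr1b7 in the GENCODE annotation of the older assembly. Opposite-strand genes likewise overlap the spans of Aldh1a1 and Aldh2. Spans include introns, and overlap of exons was not examined. Strand-specific counting was not stated, so reads from any shared exon stretch cannot be told apart. Runs of up to 59 bases are shared with Akr1b10 and of up to 52 bases with Akr1b8.

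**Figure D2:**
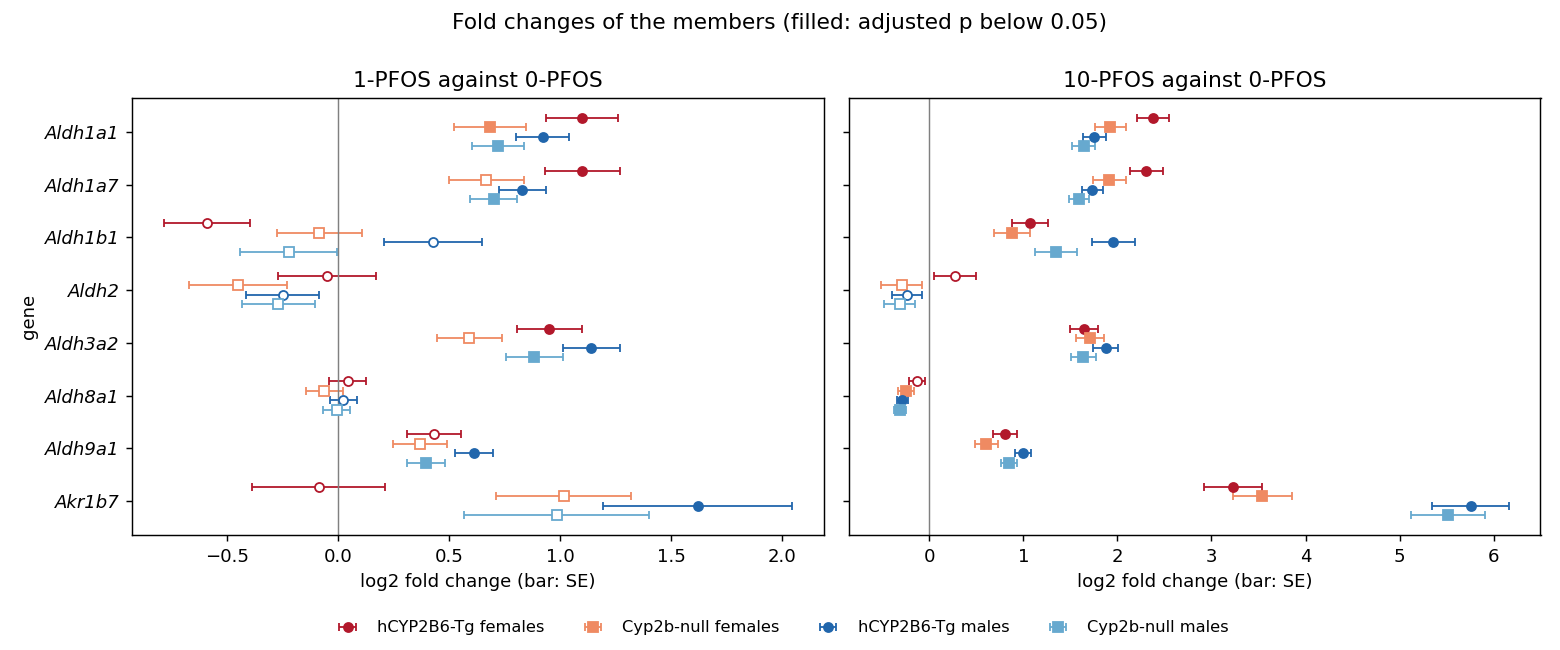
Log2 fold changes of the 8 genes (rows) at 1-PFOS (left) and 10-PFOS (right) against 0-PFOS, with bars of 1 SE and filled points where adjusted p was below 0.05, for the 4 combinations of sex and genotype. At 10-PFOS the filled points of Akr1b7 lie between 3.23 and 5.75, those of Aldh1a1 between 1.64 and 2.37, and the open points of Aldh2 between -0.31 and 0.27.

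Aldh8a1, which oxidises 2-aminomuconic semialdehyde in the kynurenine pathway of tryptophan breakdown, moved the other way. In hCYP2B6-Tg males it had 152, 149, 149 and 162 CPM at 10-PFOS against 187, 183, 178 and 199 CPM at 0-PFOS, a log2 fold change of -0.29 (SE 0.06, adjusted p = 0.000488). In Cyp2b-null males it had 153, 161, 155 and 148 CPM at 10-PFOS against 188, 194, 199 and 182 CPM at 0-PFOS (-0.31, SE 0.06, adjusted p = 0.000264). The 8 treated males were all below the 8 untreated ones. In Cyp2b-null females the values were 207, 175, 212 and 177 CPM at 10-PFOS and 223, 210.2, 255 and 225 CPM at 0-PFOS (-0.24, SE 0.08, adjusted p = 0.0266), with 1 treated mouse inside the untreated range. That call was lost without untreated replicate 3 (adjusted p = 0.125), treated replicate 2 (0.112) or treated replicate 4 (0.0895), with no filter on low counts (0.108) and in a fit of the 2 groups alone (0.075). In hCYP2B6-Tg females Aldh8a1 had 197, 207, 195 and 189 CPM at 10-PFOS and 210, 219, 221 and 215 CPM at 0-PFOS (log2 -0.13, SE 0.08, no overlap, 95% interval -0.31 to 0.04, adjusted p = 0.203). These falls depended on the scaling: with library totals alone the median of all genes moved to 0.30 in hCYP2B6-Tg males and 0.23 in Cyp2b-null males, and Aldh8a1 then had log2 fold changes of 0.035 and -0.06 in those 2 comparisons, below both medians and not called.

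Aldh2, the mitochondrial enzyme that oxidises most of the acetaldehyde from ethanol, had no called change at 10-PFOS. Its means at 10-PFOS against 0-PFOS were 1492 ± 135 against 1235 ± 106 CPM in hCYP2B6-Tg females, 1256 ± 110 against 1539 ± 89.6 CPM in Cyp2b-null females, 1150 ± 77.1 against 1354 ± 74.0 CPM in hCYP2B6-Tg males and 1067 ± 89.1 against 1326 ± 96.4 CPM in Cyp2b-null males (SD, n = 4 each). The log2 fold changes had 95% intervals of -0.18 to 0.73, -0.75 to 0.16, -0.57 to 0.10 and -0.65 to 0.02 in the same order, so a change of up to those sizes could have gone uncalled. In 3 of these comparisons (the exception being hCYP2B6-Tg females) all 4 treated mice were below all 4 untreated ones. The spread used in the test was shared with the 1-PFOS libraries. In a fit of the 2 groups alone, the falls passed the threshold in Cyp2b-null females (-0.30, adjusted p = 0.0392) and Cyp2b-null males (-0.31, adjusted p = 0.0279), and with library totals alone the value in hCYP2B6-Tg males was 0.08.

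The spread of Aldh2 at 1-PFOS followed the GC index of the library. Aldh2 had 1708, 738, 911 and 1415 CPM in hCYP2B6-Tg females at 1-PFOS, whose GC indices were 0.23, -0.57, -0.32 and 0.08, and 1636, 669, 903 and 1303 CPM in Cyp2b-null females, with GC indices of 0.14, -0.64, -0.29 and -0.03. The males had 1396, 1346, 838 and 979 CPM (hCYP2B6-Tg, GC indices 0.00, -0.02, -0.37 and -0.25) and 1359, 1402, 736 and 911 CPM (Cyp2b-null, GC indices 0.10, 0.11, -0.38 and -0.15). In each group the 2 libraries of low GC index were the 2 lowest in Aldh2, with 669 to 979 CPM over the 4 groups, and the other 2 had 1303 to 1708 CPM. At 54.8% GC the Aldh2 transcript was close to the limit of the 20% of genes highest in GC (55.1%), Aldh1b1 was above it (55.5%), and the other 6 genes lay between 46.1% and 51.0%. Without the 8 libraries Aldh2 at 1-PFOS against 0-PFOS had a log2 fold change of 0.35 in hCYP2B6-Tg females, -0.07 in Cyp2b-null females, 0.02 in hCYP2B6-Tg males and 0.06 in Cyp2b-null males, where with all libraries it had -0.05, -0.45, -0.25 and -0.27, and none of these was called.

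**Figure D3:**
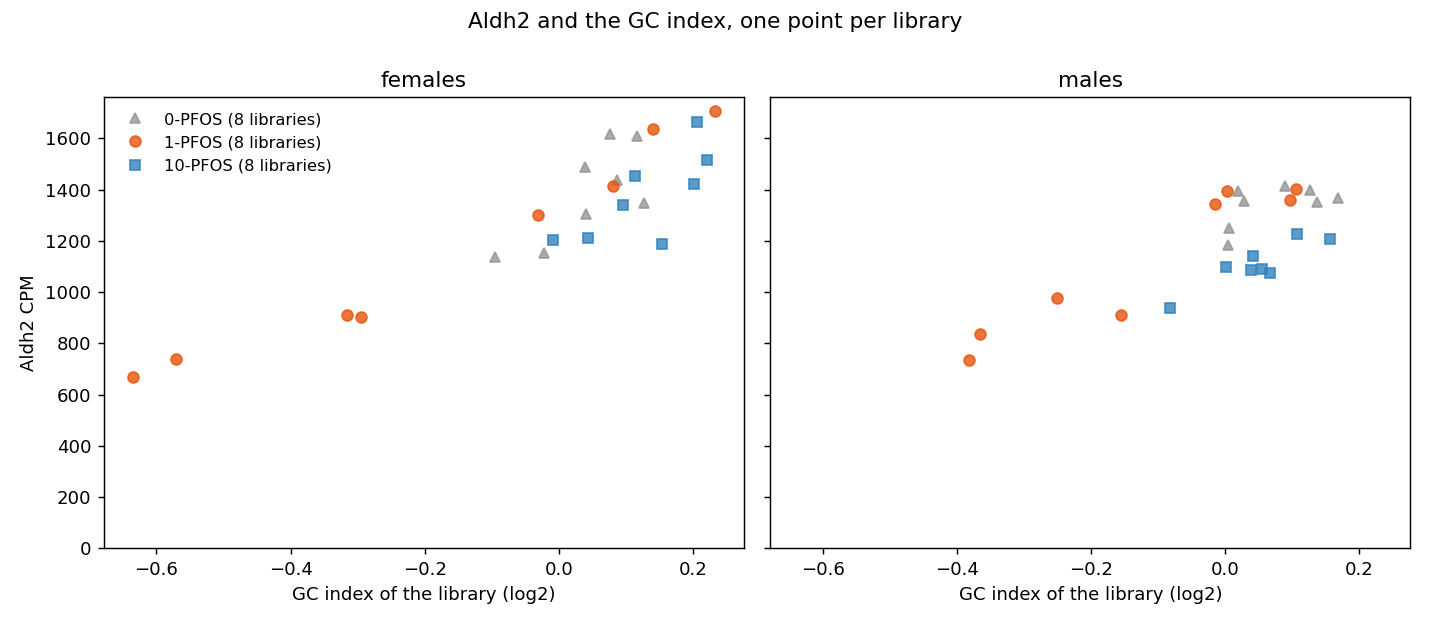
Aldh2 level (CPM, axis from 0) against the GC index of the library (log2 scale) for the 24 female and the 24 male libraries, 1 point for each library and colours by dose. The 8 points left of -0.1 are all from 1-PFOS livers and lie between 669 and 979 CPM. The other 1-PFOS points lie between 1303 and 1708 CPM. The highest of these, an hCYP2B6-Tg female with a GC index of 0.23, is above and to the right of every other point.

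At 1-PFOS fewer of the genes moved, and all that did rose. In hCYP2B6-Tg females 3 were called (Aldh1a1, Aldh1a7 and Aldh3a2), where 1.69% of all genes rose and 0.584% fell. In Cyp2b-null females only Aldh1a1 was called (log2 fold change 0.69, SE 0.16, adjusted p = 0.048), beside 0.432% and 0.265% of all genes. In hCYP2B6-Tg males 5 were called (the same 3, Aldh9a1 and Akr1b7), beside 8.72% and 5.98%, and in Cyp2b-null males 4 (the same 3 and Aldh9a1), beside 2.32% and 1.3%. Log2 fold changes of Aldh1a1 were 1.10 in hCYP2B6-Tg females, 0.92 in hCYP2B6-Tg males and 0.72 in Cyp2b-null males, those of Aldh3a2 0.95, 1.14 and 0.89, and adjusted p was 0.000761 or lower for each of these. Without the 8 libraries of low GC index the numbers called were 3 in hCYP2B6-Tg females, 0 in Cyp2b-null females, 4 in hCYP2B6-Tg males and 4 in Cyp2b-null males. Of all genes, 0.714% rose and 0.076% fell in hCYP2B6-Tg females without them, 0.258% and 0.0304% in Cyp2b-null females, 5.01% and 3.29% in hCYP2B6-Tg males and 1.13% and 0.246% in Cyp2b-null males.

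The single call in Cyp2b-null females was not stable. Aldh1a1 had 1547, 1410, 1428 and 1562 CPM at 1-PFOS there against 998, 747, 1138 and 813 CPM at 0-PFOS, with no overlap, and adjusted p ran from 0.0044 to 0.215 over the 19 alternatives. It missed the threshold without any 1 of 7 of the 8 libraries compared, all but 0-PFOS replicate 3. Akr1b7 was called at 1-PFOS in hCYP2B6-Tg males and in no other comparison of 1-PFOS with 0-PFOS, with 0.960, 0.334, 1.05 and 0.626 CPM at 1-PFOS against 0.297, 0.111, 0.224 and 0.336 CPM at 0-PFOS (log2 fold change 1.62, SE 0.43, adjusted p = 0.0118). One treated mouse lay inside the untreated range, the levels were about 1 CPM or less, and without the libraries of low GC index the adjusted p was 0.075 (range over the alternatives 0.0011 to 0.075). In Cyp2b-null females Akr1b7 had 3.72, 2.79, 2.43 and 3.51 CPM at 1-PFOS, above all 4 untreated mice, with a log2 fold change of 1.02 (SE 0.30, adjusted p = 0.128), and in hCYP2B6-Tg females it had 1.90, 2.14, 3.07 and 2.36 CPM, inside the untreated range (-0.09, SE 0.30, 95% interval -0.71 to 0.53, adjusted p = 0.915). Whether the 1-PFOS change of Akr1b7 differed between genotypes was not tested.

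Set against 1-PFOS, 10-PFOS livers had 6 of the genes higher and 0 lower in hCYP2B6-Tg females (19.1% of all genes rose and 19% fell), 5 and 0 in Cyp2b-null females (17.8% and 16.8%), 6 and 1 in hCYP2B6-Tg males (18.8% and 19.5%) and 6 and 1 in Cyp2b-null males (19.2% and 19%). The dose pattern of Akr1b7 was set mostly by the upper step, with log2 fold changes from 1-PFOS of 3.31 in hCYP2B6-Tg females, 2.52 in Cyp2b-null females, 4.13 in hCYP2B6-Tg males and 4.53 in Cyp2b-null males. Aldh1a1 moved more evenly, by 1.27, 1.24, 0.83 and 0.92 at this step. Aldh9a1 was the exception in Cyp2b-null females (0.24, SE 0.12, adjusted p = 0.138), and its call in hCYP2B6-Tg females (0.37, SE 0.12, adjusted p = 0.0189) was lost without 1-PFOS replicate 2 (0.0621) or 10-PFOS replicate 4 (0.065). Aldh2 passed in Cyp2b-null males only when the libraries of low GC index were left out (-0.37, adjusted p = 0.0105). The comparisons with 1-PFOS and with 0-PFOS share the 10-PFOS mice, and in males the filter favoured the rise of Akr1b7 in both.

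The study asked how hCYP2B6-Tg mice differ from Cyp2b-null mice, and for these genes no difference between the genotypes was called at any dose. At 0-PFOS 0 of 8 were called in females and in males, where 0% of all genes were called in either sex. At 1-PFOS 0 of 8 were called in females (0% of genes) and in males (0.889%), and at 10-PFOS 0 of 8 in females (3.59%) and in males (0.0556%). By unadjusted p below 0.05 in edgeR, 1 gene in females (Akr1b7, log2 0.70) and 2 in males (Aldh1a1, -0.25, and Aldh1b1, -0.57) differed at 0-PFOS, 1 in females (Aldh1b1, -0.45) and 0 in males at 1-PFOS, and 0 in both sexes at 10-PFOS, and DESeq2 also called 0 in all 6 comparisons. The widest difference at 10-PFOS was that of Akr1b7 in females (log2 0.39, 95% interval -0.18 to 0.96, hCYP2B6-Tg over Cyp2b-null). For Aldh1a1 at 10-PFOS the interval was -0.11 to 0.56 in females and -0.38 to 0.11 in males, and for Aldh3a2 it was -0.50 to 0.10 in females and -0.11 to 0.41 in males. The change at 10-PFOS was compared between the genotypes as well, and 0 of 8 differed in females and in males (0 by unadjusted p, 0 by DESeq2, 0% of all genes in both sexes). Of these interactions Aldh2 in females had 0.57 (SE 0.31, 95% interval -0.08 to 1.21) and Aldh1b1 in males 0.61 (SE 0.31, interval -0.03 to 1.24), with adjusted p of 0.555 and 0.608.

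Sex differences were called at 0-PFOS, on counts of both sexes scaled together. The counts of each sex came in a table of their own, so sex and any difference between the tables cannot be told apart. In hCYP2B6-Tg mice 4 of the 8 genes differed between females and males, where 21.8% of all genes did, and in Cyp2b-null mice 3 of 8, where 12.8% did. Aldh1a1 had 819, 599, 699 and 695 CPM in untreated hCYP2B6-Tg females against 1218, 944, 1195 and 1017 CPM in males (log2 fold change -0.64, SE 0.14, adjusted p = 0.00117), and 883, 665, 1007 and 719 CPM in untreated Cyp2b-null females against 1266, 1448, 1293 and 1193 CPM in males (-0.67, SE 0.14, adjusted p = 0.00118). Every female was below every male of the same genotype, and Aldh1a7 had the same order (log2 -0.75 for hCYP2B6-Tg and -0.68 for Cyp2b-null mice). Aldh1b1 was higher in hCYP2B6-Tg females, with 44.4 ± 9.63 CPM against 19.3 ± 7.16 CPM in males (SD, n = 4 each, log2 1.20, SE 0.22, edgeR adjusted p = 8.58e-05). In Cyp2b-null mice it had 42.8 ± 4.52 CPM in females against 28.6 ± 7.33 CPM in males and was not called (SD, n = 4 each, log2 0.58, SE 0.22, edgeR adjusted p = 0.0663). Akr1b7 had 2.05, 2.88, 1.60 and 2.32 CPM in untreated hCYP2B6-Tg females against 0.333, 0.123, 0.248 and 0.376 CPM in males (8.33-fold, log2 3.06, SE 0.40, adjusted p = 3.55e-07), and 1.85, 0.624, 1.34 and 1.58 CPM in Cyp2b-null females against 0.141, 0.141, 0.635 and 0.441 CPM in males (3.95-fold, log2 1.98, SE 0.39, adjusted p = 0.000514). In hCYP2B6-Tg mice the sexes were fully apart, and in Cyp2b-null mice the lowest female (0.624 CPM) was just under the highest male (0.635 CPM). The calls depended on the scaling: with library totals alone the median of all genes was 0.46 higher in females for hCYP2B6-Tg and 0.43 for Cyp2b-null mice, and Aldh1a1 (-0.20 and -0.23) was no longer called in either genotype, nor was Aldh1a7 in Cyp2b-null mice (-0.24).

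The fold change of Akr1b7 at 10-PFOS was smaller in females than in males, whose untreated levels were near the floor of detection. The levels reached and the gain in CPM were not smaller in hCYP2B6-Tg females than in males of that genotype. The female change minus the male change was -2.55 on the log2 scale in hCYP2B6-Tg mice (SE 0.51, 95% interval -3.57 to -1.52, adjusted p = 0.0016), where 6.50% of all genes had such an interaction, and -1.98 in Cyp2b-null mice (SE 0.50, interval -2.99 to -0.97, adjusted p = 0.037), where 0.949% did. It was 1 of 8 genes called in each genotype. At 10-PFOS itself the sexes overlapped: 21.0 ± 6.43 CPM in females and 14.7 ± 3.08 CPM in males of hCYP2B6-Tg, and 16.0 ± 5.97 CPM in females and 16.0 ± 0.504 CPM in males of Cyp2b-null mice (SD, n = 4 each, sexes scaled together). Untreated levels on the same scale were 2.22 ± 0.536 CPM in females and 0.270 ± 0.112 CPM in males of hCYP2B6-Tg, and 1.35 ± 0.527 CPM in females and 0.340 ± 0.242 CPM in males of Cyp2b-null mice. In hCYP2B6-Tg mice the interaction was called under all 26 alternatives, with values from -2.97 to -2.26, and in Cyp2b-null mice under 14 of 26, with values from -2.47 to -1.71 and adjusted p from 0.0060 to 0.129. The call in Cyp2b-null mice was lost with only the groups compared and without any 1 of 11 libraries, which were replicates 1, 3 and 4 of 0-PFOS females, replicates 1, 2 and 3 of 10-PFOS females, replicates 1 and 2 of 0-PFOS males and replicates 1, 2 and 3 of 10-PFOS males. In hCYP2B6-Tg mice Aldh1a1 (0.60), Aldh1a7 (0.55) and Aldh1b1 (-0.91) had interactions with adjusted p of 0.0629, 0.0859 and 0.0618 and were not called.

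**Figure D4:**
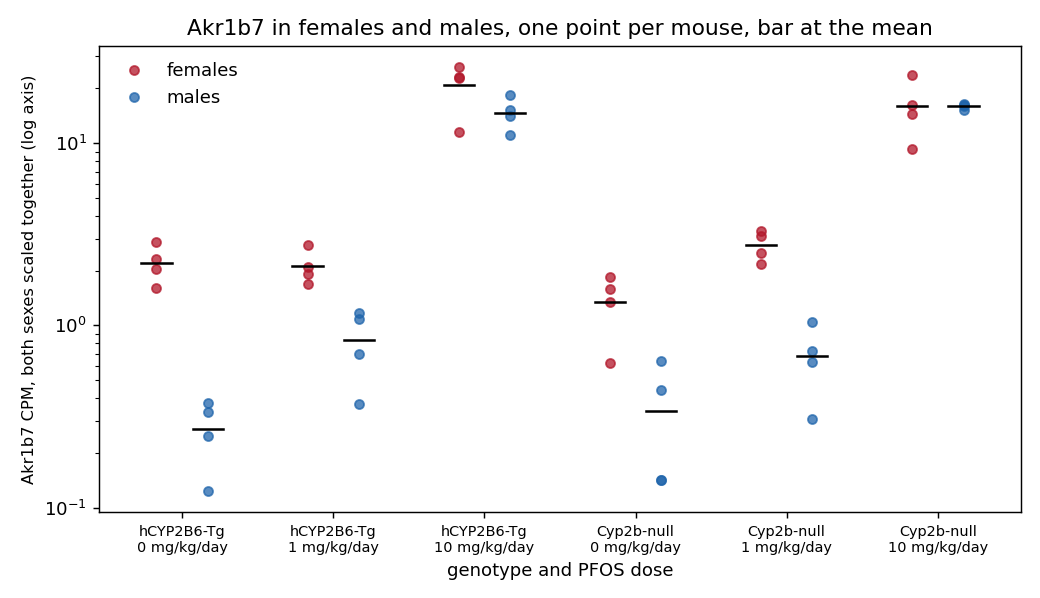
Akr1b7 level (CPM with both sexes scaled together, log axis) in females and males by genotype and PFOS dose, 1 point for each mouse and a bar at the mean of 4. Untreated males lie between 0.123 and 0.635 CPM and untreated females between 0.624 and 2.88 CPM, whereas at 10-PFOS the points of both sexes lie between 9.33 and 26.2 CPM.

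Over the 12 group means of log2 level, in both sexes together, Akr1b7 was closest to Tmprss2 (Pearson r = 0.985), Acot4 (0.981) and Ctps2 (0.980). Aldh1a1 was closest to Aldh1a7 (0.999), Nmt1 (0.993) and Ephx2 (0.993), and Aldh3a2 to Pafah2 (0.992), Ech1 (0.991) and Cyp3a16 (0.991). Aldh8a1 was closest to Ces3a (0.988), Ces3b (0.986) and Car3 (0.985), and its correlation with Akr1b7 was -0.966. These group means share libraries and a common dose step, so the values are descriptions over 12 points.

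Genes of the same families did not all move. Of 14 other aldehyde dehydrogenases, 8 were tested in females and 6 in males, and at 10-PFOS 3 rose and 0 fell in hCYP2B6-Tg females, 2 and 0 in Cyp2b-null females, 1 and 0 in hCYP2B6-Tg males and 1 and 1 in Cyp2b-null males. Of all genes, 22.3% rose and 24.5% fell in hCYP2B6-Tg females, 19.1% and 17.8% in Cyp2b-null females, 24.1% and 23.9% in hCYP2B6-Tg males and 22.5% and 21.6% in Cyp2b-null males, so that the number of rises was near that share in most of these comparisons. Aldh5a1, which oxidises succinic semialdehyde from GABA, rose in all 4 comparisons, by 0.29 to 0.63, Aldh7a1 rose in both female comparisons (0.70 and 0.29), Aldh4a1 in hCYP2B6-Tg females (0.36), and Aldh16a1 fell in Cyp2b-null males (-0.29). Of 17 other aldo-keto reductases, 13 were tested, and 5 rose and 2 fell in hCYP2B6-Tg females, 4 and 2 in Cyp2b-null females, 6 and 2 in hCYP2B6-Tg males and 4 and 2 in Cyp2b-null males. Akr1c19 (1.17 to 1.94) and Akr1b10 (1.16 to 2.62) were the 2 largest rises in each, and Akr1c20 (-0.80 to -0.68) and Akr1c6 (-0.69 to -0.64) fell in each. In males Akr1b10 was near the floor of detection. Its means at 10-PFOS against 0-PFOS were 2.39 against 0.557 CPM in hCYP2B6-Tg males and 2.42 against 0.392 CPM in Cyp2b-null males. At 1-PFOS they were 0.652 and 0.918 CPM, also under the filter limit of 1 CPM. The filter therefore favoured the rise of Akr1b10 in males at 10-PFOS, which is among the rises counted. Akr1a1 rose in all 4 (0.41 to 0.80), Akr1b3 in hCYP2B6-Tg females and males (0.55 and 0.68), Akr1c14 in Cyp2b-null females and males (0.38 and 0.32) and Akr1c13 in hCYP2B6-Tg females (0.26). List medians were 0.04 to 0.28 for the aldehyde dehydrogenases and 0.19 to 0.36 for the aldo-keto reductases. At 1-PFOS, Aldh5a1 and Aldh7a1 rose in hCYP2B6-Tg females (0.35 and 0.39) and hCYP2B6-Tg males (0.22 and 0.26), and in the males Aldh6a1 rose (0.43) and Aldh16a1 fell (-0.36). Akr1a1 rose in hCYP2B6-Tg females (0.37) and males (0.26) and Akr1e1 in the males (0.39), and neither list had a call in Cyp2b-null mice of either sex. Without the 8 libraries of low GC index, the calls of Aldh5a1, Aldh7a1 and Akr1a1 in hCYP2B6-Tg females and of Aldh5a1, Aldh16a1 and Akr1e1 in hCYP2B6-Tg males were lost, and the 2 lists had no call in females.

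The counts of pathway neighbours are read against the same shares of all genes at 10-PFOS, 19.1% to 24.1% risen and 17.8% to 24.5% fallen. Of 15 tested alcohol and retinol dehydrogenases and reductases, which interconvert alcohols or retinol and their aldehydes, 5 fell in every comparison at 10-PFOS, and 3 rose in hCYP2B6-Tg females, 4 in Cyp2b-null females, 3 in hCYP2B6-Tg males and 4 in Cyp2b-null males. Adh4 (-1.45 to -1.01), Rdh5 (-1.34 to -0.71), Rdh7 (-0.58 to -0.34) and Rdh9 (-0.77 to -0.46) fell in all 4, Dhrs3 in all but hCYP2B6-Tg females (-0.56 to -0.48) and Rdh11 in hCYP2B6-Tg females (-1.36). Dhrs4 (0.51 to 0.91) and Adh1 (0.39 to 0.79) rose in all 4, Rdh13 in Cyp2b-null females and males (0.60 and 0.36), Adh5 in hCYP2B6-Tg females (0.38), Dhrs9 in Cyp2b-null females (1.54), Rdh11 in hCYP2B6-Tg males (0.61) and Rdh10 in Cyp2b-null males (0.35). With library totals alone the falls of Rdh7, Rdh9 and Dhrs3 in hCYP2B6-Tg males, and of these 3 and Rdh5 in Cyp2b-null males, were no longer called, and nor were those of Ido2 in hCYP2B6-Tg males and of Shmt1 and Aldh16a1 in Cyp2b-null males. Of the 10 other kynurenine pathway genes around Aldh8a1, 2 rose and 2 fell in hCYP2B6-Tg females, 2 and 3 in Cyp2b-null females, 3 and 3 in hCYP2B6-Tg males and 2 and 3 in Cyp2b-null males, numbers near the shares of all genes. Haao (-0.96 to -0.74) and Ido2 (-1.24 to -0.37) fell in all 4, Kyat3 (0.42 to 0.65) rose in all 4, and Tdo2, the first enzyme of the pathway in liver, rose in all but hCYP2B6-Tg males (0.39 to 1.45). Kynu fell in hCYP2B6-Tg and Cyp2b-null males (-0.94 and -0.61), Afmid rose in hCYP2B6-Tg males (0.27) and fell in Cyp2b-null females (-0.29), and Kyat1 rose in hCYP2B6-Tg males (0.65). Of the 5 other genes of carnitine supply around Aldh9a1, Slc22a5, the carnitine transporter, rose in all 4 (1.03 to 1.36) and Shmt1 fell in all but hCYP2B6-Tg males (-0.46 to -0.39). Shmt2 rose in all but Cyp2b-null females (0.26 to 0.49) and Tmlhe in Cyp2b-null males (0.57), and Bbox1 was not called. Of 10 tested genes listed for steps before Aldh3a2, 4 rose in hCYP2B6-Tg females, Cyp2b-null females and hCYP2B6-Tg males and 5 in Cyp2b-null males, and 2 fell in each female and 4 in each male comparison. Not all of them make a substrate of Aldh3a2 directly. Cyp4a12a, a fatty acid hydroxylase, rose by 8.38 and 8.27 in hCYP2B6-Tg and Cyp2b-null females and by 1.36 and 1.32 in hCYP2B6-Tg and Cyp2b-null males, Cyp4a10 (2.65 to 3.26) and Cyp4a14 (2.66 to 2.99) rose in all 4, and Cyp4f14 (-3.91 to -3.48) and Cyp4f13 (-0.91 to -0.64) fell in all 4. Sgpl1 rose in all but hCYP2B6-Tg males (0.30 to 0.88), and in hCYP2B6-Tg and Cyp2b-null males Hacl1 rose (0.36 and 0.31) while Phyh (-0.63 and -0.49) and Sphk2 (-0.61 and -0.26) fell, falls that were no longer called with library totals alone. Medians at 10-PFOS were -0.14 to 0.07 for the alcohol and retinol dehydrogenases, -0.08 to 0.20 for the kynurenine pathway, -0.16 to 0.28 for carnitine synthesis and -0.21 to 0.30 for the genes before Aldh3a2.

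Target genes of the receptors that PFOS is known to activate mostly rose at 10-PFOS, where 19.1% to 24.1% of all genes rose and 17.8% to 24.5% fell. The lists were chosen with earlier results of these data known. Of 14 PPARα targets, which serve fatty acid oxidation, 12 rose at 10-PFOS in hCYP2B6-Tg females, 11 in Cyp2b-null females, and 12 in hCYP2B6-Tg and in Cyp2b-null males, with 0 that fell and list medians of 1.15 to 1.92. Ehhadh (3.61 to 4.18) and Acot1 (3.08 to 3.74) were the 2 largest rises of the list in each, and Cpt1a and Fabp1 were not called in any. All 12 CAR and PXR targets rose in each comparison (medians 2.37 to 3.43), among them Cyp2c55 (5.82 to 6.55) and Cyp2c65 (5.81 to 6.55). Of 11 NRF2 targets, the antioxidant response genes, 9 rose in hCYP2B6-Tg females and 8 in each of the other 3 comparisons with 0 that fell (medians 1.62 to 2.45), with Cbr3 (4.83 to 6.18), Abcc4 (4.29 to 6.45) and Gsta1 (4.93 to 5.50) the largest, and Hmox1 was not called. In untreated hCYP2B6-Tg and Cyp2b-null males the means were 0.128 and 0.178 CPM for Cyp2c65 and 0.541 and 0.596 CPM for Cbr3. The male fold changes of Cyp2c65 and Cbr3 therefore start from levels near the floor. At 1-PFOS their means in the same 2 groups were 0.799 and 0.986 CPM for Cyp2c65 and 0.483 and 0.704 CPM for Cbr3. These are also under the filter limit of 1 CPM. The filter therefore favoured the male rises of both genes at 10-PFOS, which are among the rises counted here. Gsta1 is on both of these lists, and Cyp4a10 and Cyp4a14 are on the PPARα list and that of Aldh3a2. Of all genes at 1-PFOS, 1.69% rose in hCYP2B6-Tg females, 0.432% in Cyp2b-null females, 8.72% in hCYP2B6-Tg males and 2.32% in Cyp2b-null males. The shares that fell were 0.584%, 0.265%, 5.98% and 1.3%, so numbers of calls are not alike in meaning between groups. At 1-PFOS the PPARα targets had 9 rises in hCYP2B6-Tg females, 4 in Cyp2b-null females (Cyp4a10, Cyp4a14, Ehhadh and Vnn1), 10 in hCYP2B6-Tg males, where Pdk4 fell, and 8 in Cyp2b-null males. CAR and PXR targets had 5 rises in hCYP2B6-Tg females, 3 in Cyp2b-null females (Cyp2c55, Cyp3a11 and Ces2a), 11 in hCYP2B6-Tg males and 6 in Cyp2b-null males, and NRF2 targets 2 (Abcc4 and Ugdh), 0, 6 and 3 (Gsta1, Abcc4 and Slc7a11) in the same order. Among genes before Aldh3a2, Cyp4a10, Cyp4a12a and Cyp4a14 rose in every comparison at 1-PFOS, and Sgpl1 and Sphk2 fell in hCYP2B6-Tg males. Kmo rose in hCYP2B6-Tg males (0.52) and Cyp2b-null males (0.49), as did Tmlhe (0.42 and 0.61), and hCYP2B6-Tg males also had rises of Afmid (0.62), Shmt2 (0.35) and Rdh11 (0.69). In hCYP2B6-Tg females Dhrs4 rose (0.42) and Rdh5 fell (-0.69). The kynurenine and carnitine lists had no call at 1-PFOS in females. Without the 8 libraries of low GC index, the rises numbered 7 in hCYP2B6-Tg females, 2 in Cyp2b-null females, 9 in hCYP2B6-Tg males and 8 in Cyp2b-null males for the PPARα targets, 4, 3, 11 and 4 for the CAR and PXR targets, and 0, 0, 5 and 1 for the NRF2 targets, in the same order of groups. Of all genes, 0.714%, 0.258%, 5.01% and 1.13% rose without these libraries in that order. Pdk4 and Sgpl1 in hCYP2B6-Tg males were then no longer called, nor were Tmlhe in males of either genotype, Kmo in Cyp2b-null males, Rdh11 in hCYP2B6-Tg males and Dhrs4 and Rdh5 in hCYP2B6-Tg females, while Dhrs4 was called in Cyp2b-null males. Cyp4a10, Cyp4a12a and Cyp4a14 kept their calls in every comparison.

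**Figure D5:**
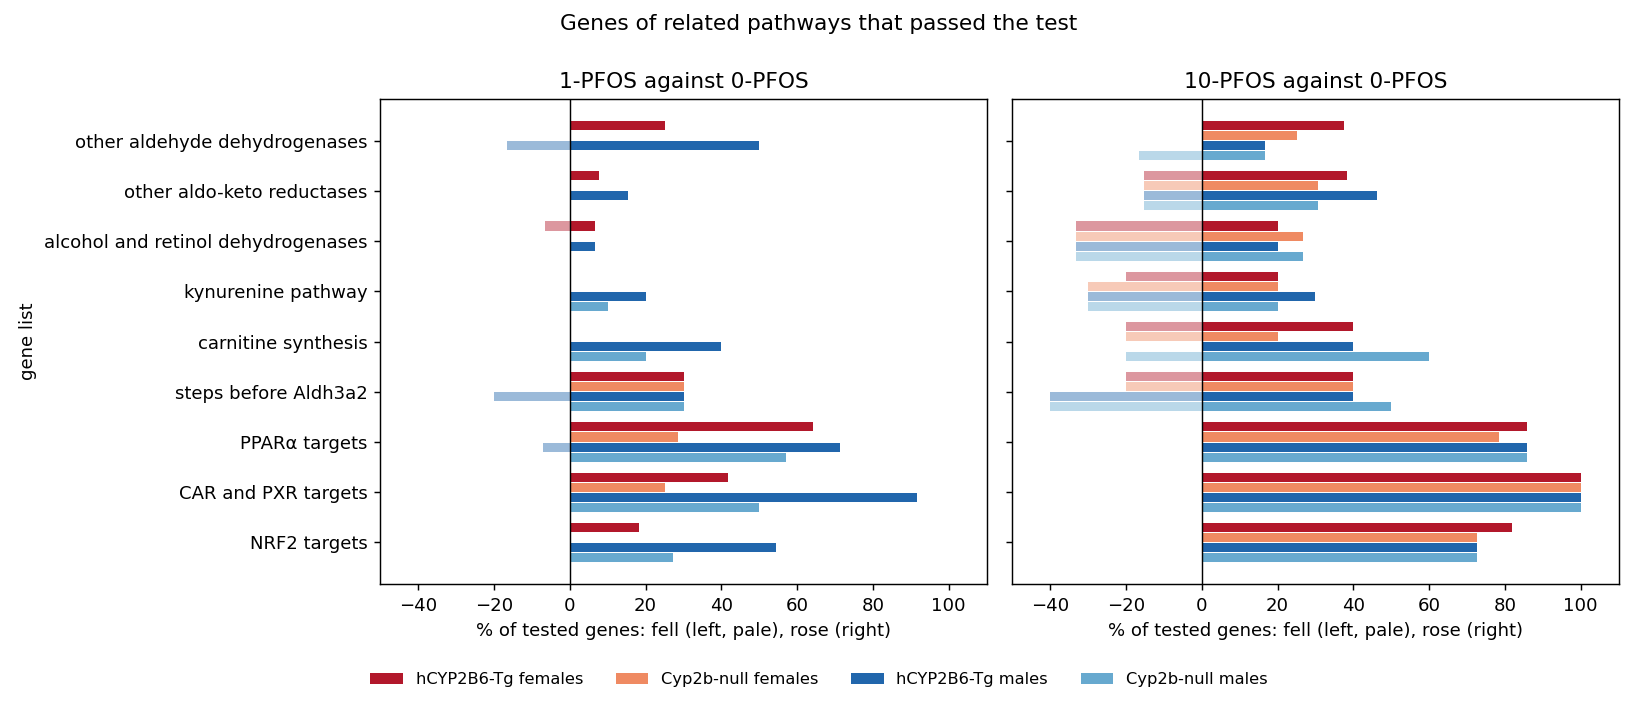
Percent of the tested genes of each list that rose (right of 0) or fell (left of 0, pale) at 1-PFOS and 10-PFOS against 0-PFOS, with a bar for each combination of sex and genotype. At 10-PFOS all CAR and PXR targets rose in the 4 comparisons, whereas the other aldehyde dehydrogenases, aldo-keto reductases and pathway neighbours had both rises and falls or few calls.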

How the data were processed

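Per the labels, messenger RNA of 48 livers was purified, sequenced as paired reads and processed with FastQC, Trim Galore, RSEM and featureCounts on GRCm39, and tested with edgeR by the study (tool versions were not given in the sources used here). Values are raw counts per gene, deposited by the authors in 1 table for each sex. Of 40872 rows, 25 with broken gene names were left out (0.0432% of female and 0.0281% of male counts). Of counts above 0, 91.1% in females and 91.2% in males were even, as where both reads of a pair are counted, so counting error is larger than the counts imply. Of 170 files listed, 2 were read. The other tables hold the study's own fold changes and p-values and were not used.

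Counts were scaled by TMM factors and fitted with edgeR 4.0.16 (R 4.3.3, limma 3.58.1), in 1 quasi-likelihood model of 24 libraries and 6 groups for each sex, and 1 model of 48 libraries and 12 groups for comparisons of the sexes. Genes with over 1 CPM in at least 3 of the 4 mice of a group were tested (13193 in females, 12594 in males, 13271 together), and p-values were adjusted by Benjamini-Hochberg over these, with a threshold of 0.05. An SE is the log2 fold change divided by the root of F, and a 95% interval uses the t distribution with the test's degrees of freedom (17.8 to 41.5). Levels are CPM on TMM-scaled totals, so falls and rises are relative to the other genes. Replicate numbers are those of the labels. The script was tested on simulated data. Promoters and transcripts were from RefSeq and GENCODE on an older assembly than the counts. All 8 genes are named, and genes of a list are named when 5 or fewer were called or as the 2 largest in a direction, while those most like a member were ranked by Pearson r. The members, lists and markers were chosen with earlier results of these data known. Alternatives were RLE factors, library totals, DESeq2 1.42.0, a likelihood ratio test, no filter or a stricter one (over 1 CPM in 12 of 24 or 24 of 48 libraries), counts divided by 2, only the groups compared, a replicate block and each mouse left out. A GC correction and leaving out the 8 libraries of low GC index were chosen after seeing the data.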

Additional observations from a re-analysis of the deposited data

Results flagged for a closer look

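Akr1b7 had a change at 10-PFOS that differed between females and males: the interaction was -2.55 on the log2 scale in hCYP2B6-Tg mice (adjusted p = 0.0016) and -1.98 in Cyp2b-null mice (adjusted p = 0.037), by the test of the difference itself in the edgeR model of both sexes. All 4 mice of each 10-PFOS group were above all 4 of its 0-PFOS group, so the difference is one of the size of the fold change and not of direction. The untreated male levels behind it were near the floor of detection.

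In 2 groups 1 mouse stood apart from the other 3 for 1 gene. Aldh2 was 1421 CPM in 1 Cyp2b-null female at 10-PFOS (replicate 4), with the others between 1186 and 1213 CPM. Aldh3a2 was 971 CPM in 1 hCYP2B6-Tg male at 10-PFOS (replicate 1), with the others between 1107 and 1129 CPM. Of 96 groups of 4 mice examined over the 8 genes, chance would give about 4.8 such mice.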

How the results depend on the processing

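Of 474 counts of genes called under an alternative, 432 stayed within 1.5 times the reported count. Of 3778 values of single genes, 3681 kept their side of the threshold, 38 lost a call and 54 gained one. The remaining 5 changed sign and were called as reported or under the alternative. Changes of sign in values called in neither fit, such as some of Aldh2, are among the 3681. For Aldh1a1, Aldh1a7, Aldh1b1, Aldh3a2, Aldh9a1 and Akr1b7 at 10-PFOS against 0-PFOS, 430 of 430 values kept the call and direction. For 1-PFOS against 0-PFOS in Cyp2b-null females (1 gene called) the count was 4 by DESeq2 and by the likelihood ratio test, 2 with library totals, with the replicate block and with only the groups compared, 0 with no filter, with the GC correction and without the libraries of low GC index, and 0 to 1 with a mouse left out. For the interaction of sex and 10-PFOS (1 called in each genotype) the count was 4 with library totals and with the GC correction, 3 by DESeq2, with the replicate block and with only the groups compared, 2 by the likelihood ratio test and with the stricter filter, and 1 to 3 with a mouse left out in hCYP2B6-Tg mice, and 2 with library totals, 0 with only the groups compared and 0 to 1 with a mouse left out in Cyp2b-null mice. Females against males at 0-PFOS in Cyp2b-null mice had 5 with library totals (3 reported). All 5 of these changes of sign, in values called in at least 1 of the fits, were of Aldh8a1 with library totals: 0.035 at 10-PFOS against 0-PFOS and 0.0043 against 1-PFOS in hCYP2B6-Tg males, 0.039 against 1-PFOS in Cyp2b-null males, and 0.34 and 0.36 in females against males of hCYP2B6-Tg and Cyp2b-null mice. The cause was not tested, but in those 5 comparisons this scaling moved the median of all genes by 0.30 or more, and the share of calls that were higher from 50.2% to 82.1% (10-PFOS against 0-PFOS) and 49.0% to 84.7% (against 1-PFOS) in hCYP2B6-Tg males, 50.2% to 86.5% (against 1-PFOS) in Cyp2b-null males, and 57.8% to 97.5% and 57.4% to 97.9% for the sexes. At 10-PFOS against 0-PFOS it moved from 50.9% to 78.6% in Cyp2b-null males and from 47.7% to 33.6% in hCYP2B6-Tg females.

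Over all doses, same-numbered mice of different groups had a median correlation of deviations of 0.0077 in females (-0.14 to 0.48) and 0.0018 in males (-0.16 to 0.26), with 12 of 60 pairs over 0.1 in each sex, so the replicate block is no pairing. Between the genotypes at 1-PFOS, where the libraries of low GC index have the same numbers, it was 0.23 to 0.48 in females (4 of 4 over 0.1) and 0.071 to 0.26 in males (3 of 4), and the block gave 0 genes called there too. It moved the 2 counts given above and no other past 1.5 times. With 4 mice in a group and as few as 8 counts of Akr1b7 in untreated males, the male fold changes rest on few reads. With the stricter filter and with only the groups compared, Akr1b7 gave no value in some comparisons of males. The 8 libraries of low GC index are all from 1-PFOS livers, which limits Aldh2 and Aldh1b1 at that dose, and their cause was not tested.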
